A study of Caenorhabditis elegans with 6 samples.

Results

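The F-box genes of the fbxa, fbxb and fbxc families were followed in whole Caenorhabditis elegans worms of strain N2, the wild type, exposed to the bipyridyl herbicide diquat. The genes were taken by name from the deposited table of the comparison, as every row whose symbol is fbxa, fbxb or fbxc with a number and whose 6 counts sum to 60 or more. Of 336 rows with such a symbol, among 20473 in the table, 138 met this rule: 61 of 181 fbxa rows, 48 of 106 fbxb rows and 29 of 49 fbxc rows. No fold change entered the choice. The 3 control libraries came from worms kept at 0 µg/L and the 3 diquat libraries from worms kept at 100 µg/L diquat dibromide monohydrate, each for 72 h at 20 °C. Both groups were thus of the same strain, with no transgene or deletion named, and were numbered 1 to 3 in the labels. The stage and age of the worms and the number pooled per library are not given, nor do the labels say that replicates came from separate cultures. P-values therefore measure only the spread between these libraries, which may be technical.

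F-box proteins are the substrate-binding subunits of SCF ubiquitin ligases. In such a ligase a cullin scaffold, CUL-1 in most cases, holds a RING protein at its other end, and an SKP1-like adaptor (an SKR protein in worms) links the cullin to the F-box motif. The remainder of the F-box protein binds the protein that is to be tagged with ubiquitin, often for destruction by the proteasome. In C. elegans the F-box genes form an unusually large group, many of them in tandem arrays of close copies, and the fbxa, fbxb and fbxc names mark families that differ in the sequence after the F-box. Many fbxa proteins carry an FTH domain, named for its likeness to FOG-2, a germline F-box protein that lets hermaphrodites make sperm. For most single members no substrate is known, so the members are described here by family, level and place in the genome. Protein and DNA sequences of the members were not used here.

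No member passed the test for a difference between diquat and control worms. Of the 137 members that passed the expression filter, 0 were higher and 0 lower with edgeR's quasi-likelihood test at a Benjamini-Hochberg adjusted p under 0.05 over all 13252 genes tested. Over all tested genes 0 were higher, or 0%, and 121 were lower, or 0.913%, so a share of 137 genes at this background comes to few calls or none. The lowest edgeR adjusted p of any member was 0.567, for fbxb-88. In the authors' deposited table, by their own test, the lowest FDR of any member was 0.909. At an unadjusted p under 0.05, 6 members (4.38%) were higher and 1 (0.730%) lower, beside 1.54% and 4.68% of all tested genes. The filter left out 1 member, fbxa-185, with 11, 15 and 9 counts in control and 9, 9 and 7 with diquat.

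The members were mostly weakly expressed. Levels between genes are compared as FPKM, the fragments scaled to transcript length and library size as the authors deposited them. The median over the members of the mean FPKM of the 6 libraries was 1.48, against 9.23 over all tested genes, and 10 of the 138 were above that value. By family the median was 1.18 FPKM for fbxa, 1.40 for fbxb and 2.30 for fbxc. Mean levels were 10 FPKM or more for 8 members, from 1 to 10 for 85 and under 1 for 45. In counts, the median member had 35.6 per library and the median tested gene 293. Of the 198 rows below the sum of 60, 72 had 0 counts in all libraries, 48 had 1 to 9 in all and 78 had 10 to 59. A count of 0 allows a level of up to 3 counts, or 0.122 to 0.128 CPM by the library totals, and covers counting error only.

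At the edge of the rule, fbxa-141, fbxa-185 and fbxa-61 had sums of 60, and just outside it an assembled locus carrying the symbol fbxa-224 had 59, with fbxa-209 and fbxa-38 at 58. Another 4 assembled loci with that same symbol were members, while the annotated gene of that name had 6 counts and was not. The symbol fbxa-224 thus stands for several loci here, which have no position in the table. fbxa-75 and fbxa-158, F-box genes of the intracellular pathogen response that work with the cullin CUL-6, had 0 counts and 1 count over the 6 libraries and were no members.

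**Figure D1:**
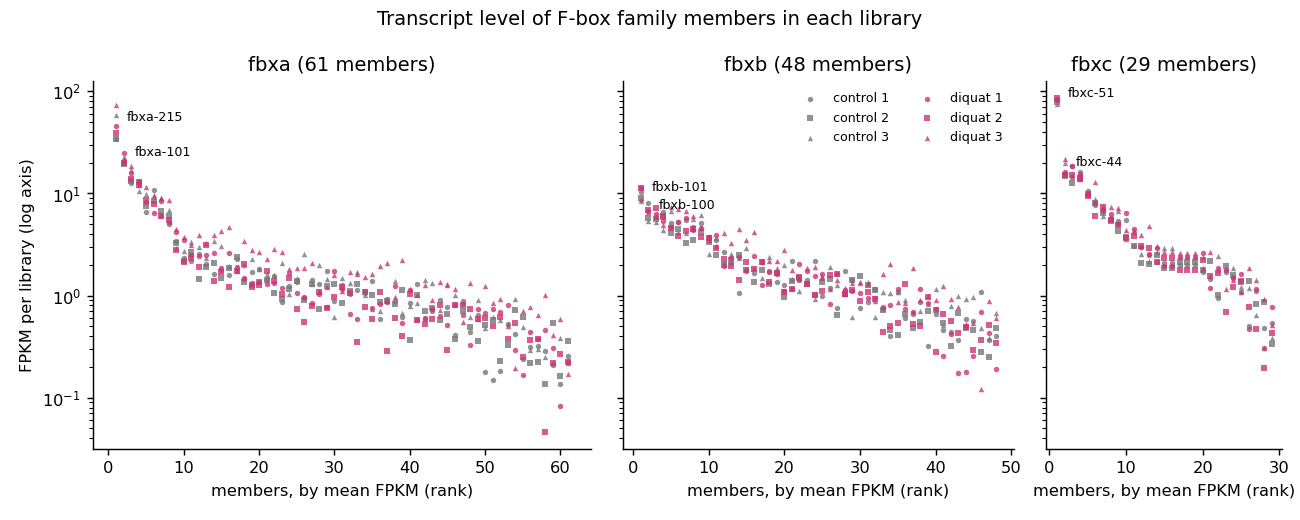
FPKM of each member in each of the 6 libraries on a log axis, with members ordered by mean FPKM within each family; grey marks are control and magenta marks diquat libraries, with circles, squares and triangles for numbers 1, 2 and 3. fbxc-51 and fbxa-215 stand above the other members, and 45 members have a mean under 1 FPKM.

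The 4 members with the highest levels held 38.4% of all member counts, and fbxc-51 alone 21.4%. fbxc-51 (WBGene00021576, chromosome II, 868814 to 871699, WBcel235) had a mean of 81.8 FPKM. In control it had 139, 140 and 118 CPM and with diquat 134, 153 and 125 CPM. CPM is the count scaled to a library's total in tested genes times its TMM factor. The groups overlapped, and their means of 133 ± 12.3 and 137 ± 14 CPM (SD, n = 3 each) gave a log2 fold change of 0.05 (95% interval -0.21 to 0.30, adjusted p = 0.941 by edgeR). A change of 2-fold in either direction lay outside this interval.

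fbxa-215 (WBGene00012879, chromosome IV, 13665364 to 13666909) was next at 47.7 FPKM and was the 1 member called with the replicate number as a block. It had 46.3, 50.9 and 77.2 CPM in control and 61.8, 56.6 and 92.2 CPM with diquat. Each diquat library lay above the control library of the same number, by 0.42, 0.16 and 0.26 on the log2 scale. The groups overlapped, since control 3 lay above diquat 1 and diquat 2. Without the block the log2 fold change was 0.27 (with a standard error of 0.21 and an edgeR adjusted p of 0.821). With it the value was 0.28 (edgeR adjusted p = 0.0205). The block takes libraries of the same number as pairs, which the labels do not state. That fit called 4.51% of all tested genes higher and 4% lower, against 1 of 137 members (0.730%) higher and 0 lower. Without diquat 3 the unblocked log2 fold change of fbxa-215 was 0.01, and without control 3 it was 0.56. Without both number 3 libraries it was 0.29 (edgeR adjusted p = 0.0844).

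fbxa-101 (chromosome I, 12958640 to 12959932) and fbxc-44 (chromosome II, 4236504 to 4237751) followed at 21.5 and 17.3 FPKM. fbxa-101 had 23.5, 24.3 and 25.3 CPM in control and 28.4, 24.6 and 23.1 CPM with diquat (log2 fold change 0.06, interval from -0.23 to 0.35, adjusted p = 0.939 by edgeR). fbxc-44 had 15.2, 16 and 18.7 CPM in control and 15.8, 16.1 and 19.7 CPM with diquat (log2 fold change 0.05, interval from -0.28 to 0.38, adjusted p = 0.955 by edgeR). In both genes the groups overlapped. The fbxb family had no member at 10 FPKM. Its highest were the neighbours fbxb-101 and fbxb-100 on chromosome I, at 9.85 and 6.54 FPKM, with log2 fold changes of 0.15 (95% interval -0.25 to 0.55) and 0.04 (-0.38 to 0.47).

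**Figure D2:**
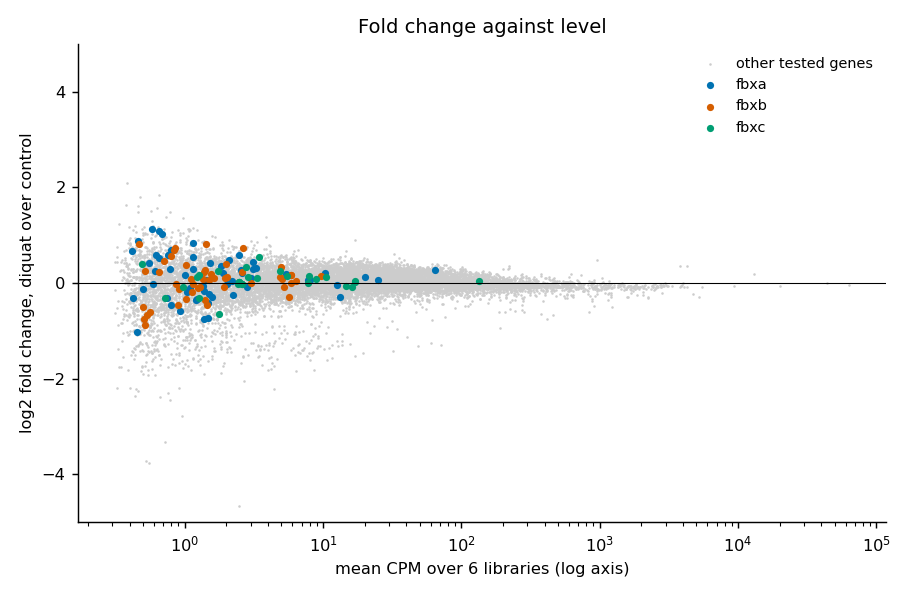
Log2 fold change of diquat over control against mean CPM (log axis) for the 13252 tested genes, with the 137 tested members in colour by family. The members lie mostly at low CPM within the spread of the other genes, and 4 of them pass 1 on the log2 scale in either direction.

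The fold changes of the members were small and more often above 0 than below. Their median log2 fold change was 0.08, beside 0.01 over all tested genes, and ranged from -1.02 to 1.14. The median was 0.11 for fbxa, 0.09 for fbxb and 0.05 for fbxc. A value above 0 was found for 85 of 137 members (62.0%), beside 52.7% of all tested genes. Half-widths of the 95% interval had a median of 0.69 on the log2 scale. For 76 members (55.5%) the interval lay inside a 2-fold change either way, beside 81.2% of all tested genes. That held for 24 of 29 fbxc members, 27 of 48 fbxb members and 25 of 60 fbxa members, so for the others the interval reached past a 2-fold difference at this depth.

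All these medians fell below 0 when diquat 3 alone was left out. Without that library the median log2 fold change was -0.05 over all members, -0.11 for fbxa, -0.06 for fbxb and -0.04 for fbxc. Without both number 3 libraries it was 0.04 over all members, 0.07 for fbxa, -0.03 for fbxb and 0.03 for fbxc. Leaving out any other single library left the medians above 0, between 0.05 and 0.15 over all members. In bulk RNA, fewer cells of a type and less RNA per cell cannot be told apart, and this holds for every level given here.

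Groups that did not overlap were found for 15 members. The 3 diquat libraries were all above the 3 control libraries in 12 (8.76%), beside 4.07% of all tested genes, and all below in 3 (2.19%), beside 6.68%. The 12 were 7 fbxa, 4 fbxb and 1 fbxc member. The share of fbxa members was 11.7%, that of fbxb members 8.33% and that of fbxc members 3.45%.

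Among members with a mean of at least 20 counts, the highest fold changes belonged to fbxa-72, fbxb-77, fbxb-78, fbxb-88, fbxb-68 and fbxa-65. fbxb-88 (WBGene00016359, chromosome II, 4826446 to 4827884) had 1.99, 1.78 and 2.16 CPM in control and 2.85, 2.37 and 4.62 CPM with diquat, with diquat 3 far above the others. The groups did not overlap (log2 fold change 0.74, with a standard error of 0.28 and an edgeR adjusted p of 0.567). With the block the adjusted p was 0.0622, and with the block and each library's length trend removed 0.0410. Without diquat 3 the log2 fold change was 0.39.

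fbxb-77 (WBGene00021204, chromosome IV, 4754199 to 4756157) had 0.893, 0.775 and 1.42 CPM in control and 1.89, 2.05 and 1.55 CPM with diquat. All diquat libraries were above all control libraries, number 3 closest together (log2 fold change 0.82, with a standard error of 0.32 and an edgeR adjusted p of 0.612). It kept a value of 0.66 to 1.14 with any single library left out. fbxb-78, a neighbour at 4737558 to 4738862, had 0.406, 0.502 and 1.02 CPM in control and 0.797, 0.547 and 1.86 CPM with diquat. Here the number 3 library was the highest of each group, and the groups overlapped (log2 fold change 0.74, edgeR adjusted p = 0.819). Without diquat 3 the value was 0.05, without control 3 it was 1.27, and without both it was 0.57.

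fbxa-72 (chromosome V, 674886 to 676753) had 0.650, 1.05 and 0.773 CPM in control and 0.965, 1.37 and 2.06 CPM with diquat. The groups overlapped in diquat 1 and control 2, and the log2 fold change was 0.84 (with a standard error of 0.37 and an edgeR adjusted p of 0.765), or 0.49 without diquat 3. fbxb-68 and fbxa-65 had log2 fold changes of 0.69 and 0.58, and of 0.01 and 0.07 without diquat 3. fbxb-68 had 0.690, 0.547 and 0.691 CPM in control and 0.713, 0.593 and 1.78 CPM with diquat. Only diquat 3 stood apart in that gene.

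At the same minimum of 20 counts, the lowest fold changes belonged to fbxa-156, fbxa-211, fbxc-50, fbxa-115, fbxb-106 and fbxb-71. fbxa-211 (WBGene00012566, chromosome V, 18127519 to 18128888) had 2.15, 1.64 and 1.71 CPM in control and 0.923, 1.00 and 1.36 CPM with diquat. All diquat libraries were below all control libraries (log2 fold change -0.74, standard error 0.30, 95% interval -1.38 to -0.09, edgeR adjusted p = 0.659). The value stayed between -0.94 and -0.61 with any single library left out. Its adjusted p with the block was 0.143.

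fbxa-156 (chromosome V, 17895314 to 17896786) had 1.38, 1.78 and 2.03 CPM in control and 0.713, 0.456 and 1.86 CPM with diquat. Diquat 1 and 2 were below every control library and diquat 3 was among them (log2 fold change -0.75, with a standard error of 0.44 and an edgeR adjusted p of 0.819). Without diquat 3 the value was -1.56 (edgeR adjusted p = 0.128). fbxc-50 (chromosome II, 3246316 to 3248123) had 1.99, 2.46 and 2.07 CPM in control and 2.01, 0.867 and 1.24 CPM with diquat. Its groups overlapped only in diquat 1 and control 1 (log2 fold change -0.65, edgeR adjusted p = 0.819). fbxa-115, fbxb-106 and fbxb-71 had log2 fold changes of -0.59, -0.46 and -0.45, with 95% intervals that reached above 0.

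**Figure D3:**
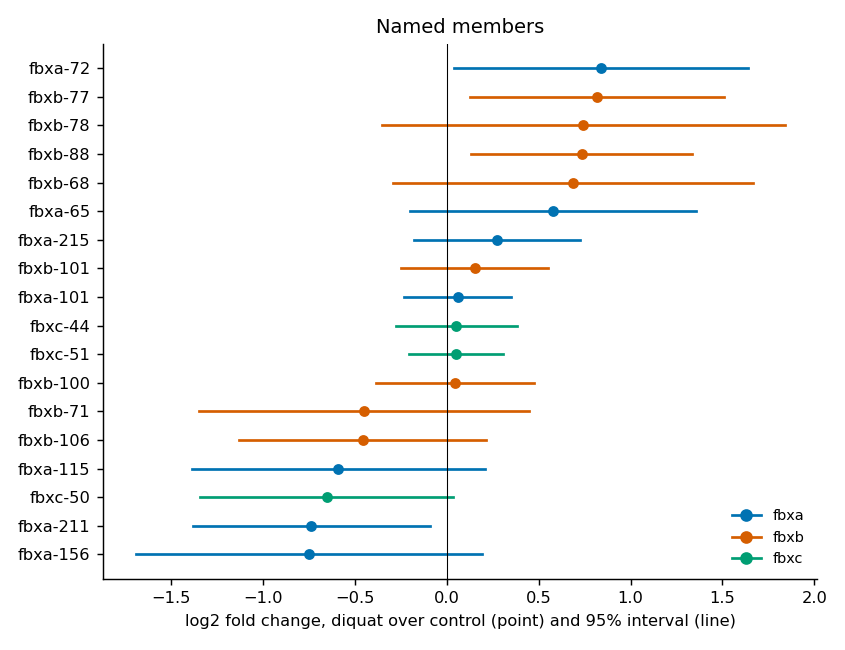
Log2 fold change of diquat over control (points) with its 95% interval (lines) for the 18 members named by rule, coloured by family. The intervals of fbxa-72, fbxb-77, fbxb-88 and fbxa-211 do not reach 0, and none of the 18 has an edgeR adjusted p under 0.05 without the replicate block.

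Below a mean of 20 counts, 4 members passed 1 on the log2 scale, each on few counts, and they are named after their values were seen. fbxa-42 had 5, 6 and 15 counts in control and 18, 16 and 24 with diquat (log2 fold change 1.14, standard error 0.48). fbxa-140 had 5, 14 and 13 in control and 18, 16 and 33 with diquat (1.03, standard error 0.47). fbxa-71 had 9, 15 and 19 in control and 6, 11 and 4 with diquat (-1.02, standard error 0.54). The edgeR adjusted p was 0.702, 0.796 and 0.819 in turn. fbxa-42 and fbxa-71 lie close together on chromosome III, at 2259906 to 2261453 and 2255822 to 2257247, with fold changes of opposite sign. The fourth, fbxa-135, had 13, 6 and 11 counts in control and 20, 2 and 44 with diquat (1.08, standard error 0.69).

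When the length trend was removed beside the block, 3 members passed: fbxa-215 (edgeR adjusted p = 0.00553) and fbxb-88 (0.0410) as higher and fbxa-24 (0.0342) as lower. These are 1.46% and 0.730% of the members, beside 3.39% of all tested genes higher and 6.14% lower in that fit. fbxa-24 (chromosome II, 3816526 to 3818238), named after its values were seen, had 16.3, 13.9 and 13.3 CPM in control and 9.44, 12.8 and 13.2 CPM with diquat. The groups did not overlap, though control 3 and diquat 3 nearly met (log2 fold change -0.29, edgeR adjusted p = 0.819 without the block).

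Members also differed between libraries of the same group. Diquat 3 was the highest of the 6 libraries in 62 of 137 members (45.3%), beside 29.8% of all tested genes. This held for 33 of 60 fbxa members (55%), 17 of 48 fbxb members (35.4%) and 12 of 29 fbxc members (41.4%). The median deviation of the fbxa members from their own mean over the 6 libraries was 0.48 on the log2 scale in diquat 3 and 0.09 in control 3. It was -0.14 and -0.04 in control 1 and 2 and -0.10 and -0.09 in diquat 1 and 2. In fbxb it was 0.19 in diquat 3, and in fbxc 0.10, while over all tested genes it lay between -0.01 and 0.02 in every library.

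**Figure D4:**
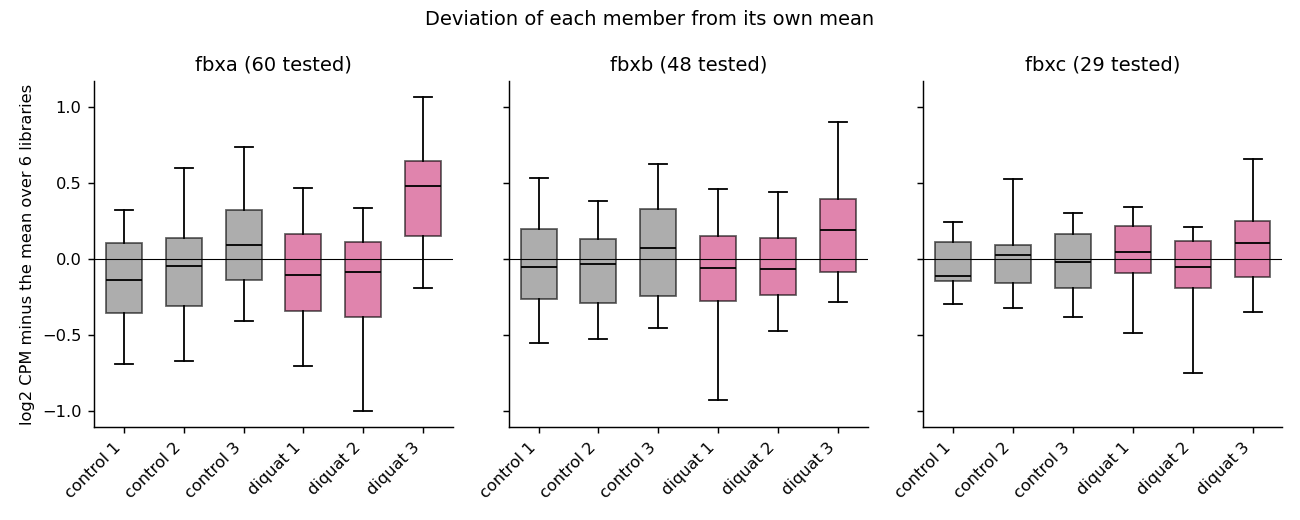
Log2 CPM of each tested member minus its own mean over the 6 libraries, by family and library; boxes show quartiles with the median as a line, whiskers the 5th to 95th percentile, grey for control and magenta for diquat. The fbxa box of diquat 3 lies highest, with a median of 0.48.

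The replicate number as a term in the blocked fit, tested after these values were seen, was significant for 13 members (9.49%; edgeR adjusted p under 0.05), beside 26.5% of all tested genes. The labels do not say what a number stands for. Of the 13, 8 were fbxa, 1 was fbxb and 4 were fbxc members. All 8 fbxa members had a fitted level higher in number 3 than in number 1, and 7 of the 8 had both number 3 libraries above the other 4. fbxa-182 (chromosome II, 2409633 to 2412749) had 1.87, 2.19 and 4.31 CPM in control and 2.52, 2.42 and 5.32 CPM with diquat. Its fitted level was higher in number 3 than in number 1 by 1.14 on the log2 scale. The edgeR adjusted p of 0.00117 is for any difference between the 3 numbers, not for this one alone. The log2 fold change of fbxa-182 with diquat was 0.30 (edgeR adjusted p = 0.880).

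Of the 4 fbxc members, all but fbxc-14 had a fitted level lower in number 3 than in number 1. fbxc-33 (chromosome II, 913672 to 915219) had 6.58, 4.88 and 4.07 CPM in control and 7.63, 4.74 and 4.81 CPM with diquat, so that number 1 was the highest in both groups (edgeR adjusted p = 0.0229 for the number). fbxc-51 was lowest in number 3 in both groups (0.0392), and fbxc-45 highest in number 1 (0.0468). fbxc-14, with 10 to 42 counts a library, had number 3 above number 1. Over all members, both number 3 libraries were above the other 4 in 30 (21.9%) and below them in 13 (9.49%), beside 20.5% and 20.3% of all tested genes. For fbxa these counts were 18 (30%) and 2 (3.33%) of 60.

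**Figure D5:**
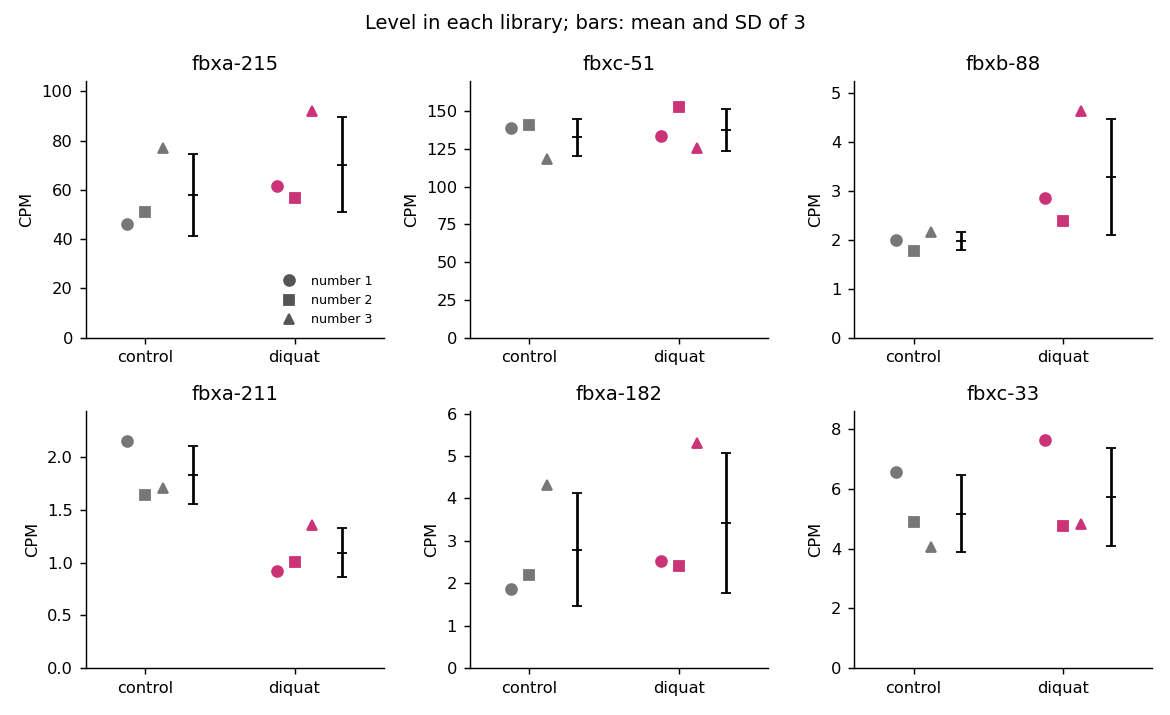
CPM in each library for 6 members, from 0; circles, squares and triangles are numbers 1, 2 and 3, and bars the mean and SD of 3 libraries. fbxa-215 and fbxa-182 are highest in number 3 of each group, fbxc-33 is highest in number 1, and fbxa-211 has its groups apart.

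Summed levels overlapped between the groups in each family. The 138 members together had 596, 604 and 623 CPM in control and 617, 620 and 695 CPM with diquat. The means were 608 ± 13.6 and 644 ± 44.1 CPM (SD, n = 3 each), and a two-sided exact permutation test gave p = 0.3, where 3 against 3 can reach no less than 0.1. Taken as pairs by number, all 3 diquat libraries were higher, by 20.1, 16.2 and 71.8 CPM. An exact two-sided sign-flip permutation test over the pairs, added after these values were seen, gave p = 0.25, the smallest that 3 pairs allow. With all 3 differences above 0 the test could give no other value, so it adds nothing to their signs. In each single family 2 of the 3 pairs were higher (exact sign-flip permutation p = 0.5). The fbxa sum was 204, 219 and 258 CPM in control and 228, 216 and 297 CPM with diquat, with number 3 highest in each group (exact permutation p = 0.6). The fbxb sum was 103 ± 3.53 CPM in control and 110 ± 7.32 CPM with diquat (exact permutation p = 0.3, n = 3 each). The fbxc sum was 278 ± 13.3 and 287 ± 9.05 CPM (exact permutation p = 0.6, n = 3 each). Within it fbxc-51 alone had means of 133 and 137 CPM, and within the fbxa sum fbxa-215 had 58.1 and 70.2 CPM. All members but fbxc-51 summed to 475 ± 25.5 CPM in control and 507 ± 54.8 CPM with diquat (exact permutation p = 0.5, n = 3 each).

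The families differed in place and gene structure, features the selection did not use. Positions were found for 134 members. Chromosomes II and V held 45 and 40 of them, III and IV 16 each, I 11 and X 6. All 29 fbxc members lay on II (21) or IV (8). Of 57 fbxa members with a position 28 were on V and 13 on III, and of 48 fbxb members 18 were on II and 12 on V. The fbxa members on V had a log2 fold change of 0.26 at the median and those on III of -0.16, with 20 of 27 and 4 of 13 above 0. On I, II, IV and X, with 3 to 6 tested fbxa members each, the medians were 0.06, -0.04, 0.27 and 0.43. For fbxb the median was 0.09 on V and 0.14 on III. No test of these differences was made, and no values for all genes of a chromosome stand beside them. The median total length of a gene's exons was 1198, 1074.5 and 1128 nucleotides in fbxa, fbxb and fbxc. All were below the 1416 of the tested genes.

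Exon number, counted after the overlapping exons of a gene were merged, differed by family. In fbxb 39 of 48 members had 2 exons and 9 had 3. Of those 9, 8 lay on V, where the other 4 fbxb members had 2, and the ninth was fbxb-77 on IV. In fbxa 28 of 57 had 4 exons, 16 had 3 and 9 had 5. In fbxc 20 of 29 had 3 exons, 6 had 4 and 3 had 5. Exons of 6 members (fbxa-19, fbxa-94, fbxa-179, fbxb-24, fbxb-103 and fbxc-47) overlapped those of a coding gene on the other strand. Without a stated strand setting, the reads of such pairs cannot be told apart.

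Some members had close neighbours at other levels. With a gap of at most 20000 bases between adjacent members, a rule set after their positions were seen, 53 of the 134 formed 11 groups of 3 or more. The highest mean FPKM in a group was over 10 times the lowest in 3 of the 11 and 1.51 to 5.40 times the lowest in the other 8. The largest, on II from 907448 to 1001451, held 13 fbxc members and fbxb-30. Its levels ran from 0.496 FPKM for fbxc-7 to 14.8 FPKM for fbxc-36, a ratio of 29.9, with log2 fold changes from -0.08 to 0.54. The upper value was that of fbxc-24, named after its values were seen, with 3.09, 2.74 and 2.60 CPM in control and 3.06, 3.88 and 5.32 CPM with diquat (edgeR adjusted p = 0.773). On V, fbxa-107, fbxa-210 and fbxa-211 stand side by side from 18123939 to 18128888. Their levels were 7.53, 15.2 and 1.20 FPKM and their log2 fold changes 0.06, 0.13 and -0.74. On I, fbxa-101 and fbxa-140 are adjacent and had 21.5 and 0.616 FPKM.

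An array of fbxc genes on IV showed how close copies shared their counts. fbxc-1, fbxc-2, fbxc-4, fbxc-5 and fbxc-3 lie in that order there on the plus strand from 891239 to 909223. Their starts are 4152 or 4153 bases apart and each has 1128 nucleotides of exons. fbxc-2, fbxc-3 and fbxc-4 had the same counts in every library, 55, 57 and 63 in control and 63, 47 and 70 with diquat. fbxc-1 and fbxc-5 also had the same counts, 58, 50 and 78 in control and 51, 61 and 71 with diquat. The 138 members thus held 135 distinct sets of counts. In the reference names the identifiers of fbxc-2 and fbxc-3 carry the symbol fbxc-4 and that of fbxc-1 the symbol fbxc-5, the same 2 sets. The sources used here do not say how reads that match several copies were assigned, so the values of single copies are uncertain. Both sets had log2 fold changes near 0, at 0.02 (95% interval -0.48 to 0.53) and -0.03 (-0.56 to 0.50). fbxc-12, which lies within the array with 1413 nucleotides of exons, had its own counts at a lower level of 0.510 FPKM.

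The genes for the ligase partners of F-box proteins were also read from the same fit. Of 35 tested genes for SCF subunits and the factors that switch them on and off, 0 were higher and 0 lower with edgeR, with a median log2 fold change of 0.02. The adaptor skr-1 stood at 196 FPKM (209, 206 and 179 CPM in control, mean 186 ± 6.59 CPM with diquat, SD, n = 3; log2 fold change -0.09, edgeR adjusted p = 0.874). The RING subunit rbx-1 had 187 FPKM and a log2 fold change of 0.01 (95% interval -0.24 to 0.26). The scaffold cul-1 had 75.2, 72.8 and 76.0 CPM in control and 81.4, 78.8 and 79.0 CPM with diquat, so its groups did not overlap (log2 fold change 0.10, 95% interval from -0.12 to 0.31, adjusted p = 0.855 by edgeR). With the length trend removed the cul-1 value was 0.01. cul-6 and skr-5, a cullin and an adaptor of the intracellular pathogen response, had 0.809 and 5.18 FPKM and log2 fold changes of 0.14 and -0.45, with edgeR adjusted p-values of 0.934 and 0.819.

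With the replicate block, 4 of these 35 genes were called higher and 0 lower, beside 4.51% and 4% of all tested genes in that fit. They were csn-2, csn-3 and csn-4, subunits of the COP9 signalosome that removes the ubiquitin-like protein NED-8 from cullins, and rfl-1, part of the enzyme that activates NED-8. csn-2 had 24.6, 24.8 and 36.9 CPM in control and 32.4, 28.9 and 63.4 CPM with diquat. Number 3 was again the highest in each group and the groups overlapped (blocked log2 fold change 0.48, blocked edgeR adjusted p = 0.00108; 0.819 without the block). csn-4, csn-3 and rfl-1 had blocked log2 fold changes of 0.30, 0.31 and 0.30 (blocked edgeR adjusted p = 0.0284, 0.0310 and 0.0423). Among 4 other cullins cul-4, the scaffold of another ligase family, was called higher with the block (0.40, blocked edgeR adjusted p = 0.00391). Without diquat 3 the unblocked log2 fold changes were 0.07 for csn-2 (0.53 with all libraries), 0.07 for csn-3 (0.32) and 0.10 for rfl-1 (0.30). For csn-4 and cul-4 they were 0.15 (0.30) and 0.15 (0.39). With both number 3 libraries left out they were 0.31 for csn-2, 0.24 for csn-3, 0.29 for rfl-1, 0.33 for csn-4 and 0.44 for cul-4. In that last fit cul-4 was among the 202 genes called higher.

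Of 11 F-box genes outside these families 0 passed the unblocked test. With the block the neuronal gene mec-15, needed for touch sensitivity, was called higher (0.29, blocked edgeR adjusted p = 0.0253; 0.779 without the block). That fit called 4.51% of all tested genes higher. The levels of mec-15 were 30.8, 30.1 and 36.7 CPM in control and 41.4, 35.6 and 42.6 CPM with diquat. Its groups overlapped, since diquat 2 lay below control 3. lin-23, the worm homologue of beta-TrCP that limits cell division, had a log2 fold change of 0.12 (95% interval -0.11 to 0.34). sel-10, the homologue of FBW7 that acts on LIN-12 Notch, had 0.04 (-0.19 to 0.27). fog-2 lies on V at 20199254 to 20200648 beside its relative ftr-1, between the members fbxa-115 and fbxa-114. It had 15.8, 15.6 and 15.9 CPM in control and 16.4, 16.4 and 16.8 CPM with diquat (log2 fold change 0.07, 95% interval from -0.22 to 0.36, adjusted p = 0.925 by edgeR).

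Adaptor families that serve CUL-3 ligases, named bath, math and btb, were read in the same way. Of 99 such genes 44 had 0 counts, 35 were tested and 0 passed with or without the block, with a median log2 fold change of 0.07. For the intracellular pathogen response, 14 of 44 genes were tested and 0 passed either fit, with a median of -0.20 and a range from -0.83 to 0.62. The difference between these lists and the F-box members was not tested.

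All libraries had 23390547 to 24593469 counts. Markers of intestine, body wall muscle, neurons, pharynx, hypodermis, germline, oocytes and early embryo were all detected, with 0 of any list at 0 counts, as the whole-worm label states. The summed level of 6 rows of sperm markers was 27.2 to 28.9 CPM in control and 10.1 to 13.2 CPM with diquat, and 4 of the 6 were lower (edgeR adjusted p under 0.05). Log2 fold changes of the 6 ran from -4.66 to 0.71, with 1 above 0. The 4 hypodermis markers summed to 1125 to 1396 CPM in control and 799 to 1059 CPM with diquat, with 0 called without the block. That sum follows col-19, a cuticle collagen, with a log2 fold change of -0.48 and an adjusted p of 0.280 by edgeR, while the other 3 had values from 0.05 to 0.13. In the other lists 0 were called without the block. The blocked fit called 4.51% of all tested genes higher and 4% lower. It called 5 of 6 sperm rows, 2 of 4 muscle markers, 1 of 6 intestine rows and 1 of 4 hypodermis markers lower. It called 0 markers of any list higher. The part of these values in the values of the F-box members was not tested. With each library's trend of level with transcript length removed from the unblocked fit, the members' median was 0.09 and 0 passed. In the blocked fit the same step took the members passing from 1 to 3 and those differing by replicate number from 13 to 23.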

How the data were processed

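Per the submitters' processing notes, fastp 0.18.0, HISAT2, StringTie 1.3.1 and RSEM were used on WBcel235, with no role or order given. The authors deposited 1 table of 20473 rows, 282 of them loci assembled from the reads, with a count and an FPKM per gene and library, per the file headers. RSEM is named, and in 94 places the count is 0 where the FPKM is above 0, so the deposited values were read as estimated counts, already rounded by the authors. FPKM was normalized by the authors and used only to compare levels between genes. Group means of FPKM, a log2 fold change, a p-value and an FDR were also deposited by the authors, whose test the sources used here do not name, nor the strand setting.

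Counts were tested with edgeR 4.0.16 (R 4.3.3): TMM scaling, default expression filter, robust quasi-likelihood F-test, group as the only term, all 6 libraries, Benjamini-Hochberg adjustment over all tested genes. Standard errors and 95% intervals were derived from each gene's F statistic. Log2 CPM used a prior count of 2. The unblocked, blocked and length-corrected fits and DESeq2 were run on simulated counts. The simulation held no difference between replicate numbers and no length trend, so it did not test how the fits handle these. Positions and exon lengths came from the Ensembl 115 annotation of WBcel235, which held 20105 identifiers. No libraries of a group agreed within sampling noise, since chi-square over its degrees of freedom was at least 15.5 in each pair.

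Same-numbered libraries deviated together, with correlations of 0.155, 0.200 and 0.459 across genes, all above 0.1. The numbers were therefore taken to pair them, and a blocked fit on that number was added. Control 1 correlated more with diquat 2, at 0.208, than with diquat 1. The correlations thus do not settle how numbers 1 and 2 pair, and the labels do not say what a number stands for. Calls with the block depend on the pairing by number, which was assumed.

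Members, lists and tests were chosen with earlier results of these data known. Named members were any past the test, the 4 highest by FPKM and the 2 highest in each family, the 6 highest and 6 lowest fold changes at a mean of 20 or more counts, and blocked calls. Named partners were list members called in either fit and 8 fixed genes. Alternatives were DESeq2 1.42.0, its size factors, no filter, the block, the length trend removed by a smoothed offset per library, and each library left out. Leaving out both number 3 libraries and testing the number itself and the summed levels by pair were chosen after seeing the data.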

Additional observations from a re-analysis of the deposited data

How the results depend on the processing

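The members' counts of 0 higher and 0 lower held with DESeq2, DESeq2 size factors, no filter, the length trend removed, each library left out and both number 3 libraries left out. With the replicate block 1 member was higher and 0 lower, and with that block plus the length correction 2 were higher and 1 lower. Over all genes, the 0 higher became 2 with DESeq2 and without a filter, 1 with the length trend removed, 598 with the block and 449 with the block and length trend removed, and 0 to 202 with libraries left out, the last without both number 3 libraries. The 121 lower became 530 with the block, 814 with the block and length trend removed, and 27 to 304 with libraries left out. Median log2 fold changes with libraries left out ran from -0.05 to 0.15 over all members, -0.11 to 0.22 for fbxa, -0.059 to 0.134 for fbxb and -0.044 to 0.106 for fbxc, each lowest without diquat 3; without both number 3 libraries fbxb was at -0.031. The count of members that differed between replicate numbers, 13 with the block, was 23 with the length trend also removed. Of the values of named genes under alternatives, 386 moved by less than the spread between replicates without changing a call, 14 moved further and 16 gained a call in the same direction. The cause was not tested. Most members had few counts, with a median of 35.6 per library; detection by count was not tested.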
